A study of Mus musculus with 27 samples.

Results

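The nuclear genes for the subunits of respiratory complexes III, IV and V were followed across murine bone marrow-derived macrophages. Members were the rows of the gene count table whose symbols begin with Uqcr, Cox4 to Cox8 or Atp5, together with Cyc1, without pseudogene rows, and with at least 3 counts in at least 3 libraries of the first batch. Of 58 rows with such a symbol, 13 were pseudogenes and 4 were not detected, which left 41 members of 50559 rows, 9 of complex III, 15 of complex IV and 17 of complex V. The filter on low counts kept 40 of them, and Cox6b2 was not tested. Cells came from age-matched female C57BL/6 mice of 3 to 4 months, either wild type (WT) or lacking the mitochondrial chaperone TRAP1 (KO), and were differentiated in medium that held L929-conditioned medium as the source of M-CSF. They were left unpolarized (M0) or given 10 ng/ml of IL-4 over 24 h (M2). Both were then kept for 48 h, with medium renewed after 24 h, in control medium (DMEM) or in medium conditioned by murine cells of a malignant peripheral nerve sheath tumor (CM), which gives 8 groups of genotype, polarization and medium. RNA was counted from the 3′ end of transcripts, in counts per gene, with 24 libraries in batch 1 (3 per group) and 3 in batch 2. Total counts ran from 7037684 to 9089792 in batch 1 and from 9997776 to 11152362 in batch 2. Levels are CPM, library-size scaled counts with TMM factors applied, and batch 1 gives the results unless stated.

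Trap1 was read first, since it checks the genotype labels. In batch 1 it had no count in any of the 12 KO libraries and stood at 10.9 to 18.8 CPM in the 12 WT libraries. Xist, the noncoding RNA of the inactive X chromosome, was at most 1.14 CPM in the KO libraries of batch 1 and at least 266 CPM in every WT library, although all mice are labelled female. In batch 2 the libraries labelled KO M2 DMEM replicate 4 and KO M2 CM replicate 4 held Xist at 401 and 313 CPM, with Trap1 at 0.190 and 0 CPM. Within batch 1, TRAP1 genotype and Xist status cannot be told apart.

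All 24 batch 1 libraries correlated best across genes with their own group's mean. Of the 3 libraries in batch 2, 1 did. The library labelled KO M2 DMEM replicate 4 was closest to KO M0 in CM (Spearman's rho 0.969, against 0.913 with its own label). The library labelled KO M2 CM replicate 4 was closest to WT M2 in DMEM (0.983, against 0.949). Both go against their labels, so counts are given without batch 2 and with it. Batch 2 holds only WT M0 in DMEM, KO M2 in DMEM and KO M2 in CM. It adds no library to KO against WT in M0 CM, or to M2 against M0 in WT CM. Nor does it add any to CM against DMEM in KO M0 or in WT M2. Calls there can change with batch 2 only through what the fit shares over all libraries, such as spread and scaling. In the spread of counts between 2 libraries of a group, as chi-square per degree of freedom, replicate 1 stood apart in 5 groups (all but M2 in DMEM and KO M2 in CM), for instance at 37.4 and 33.6 in WT M2 in CM against 2.57 between its replicates 2 and 3, and pairs with the 2 libraries named above reached 94.2 to 178.

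The macrophage label held in each group: all 10 macrophage markers were detected, led by Lyz2, with summed means of 9100 to 11400 CPM. The 5 genes that mark the IL-4 response summed to 725 CPM in KO M0 and 733 CPM in WT M0 in DMEM, to 1280 CPM in WT M0 and 2590 CPM in KO M0 in CM, and to 2810 and 3150 CPM in KO and WT M2 in DMEM, and were highest in KO and WT M2 in CM, at 4320 and 4750 CPM. Mrc1 made up nearly all of this sum in M0 in either medium, while Retnla led it in M2 in DMEM. In batch 2 the sum was 690 CPM in the library labelled KO M2 DMEM replicate 4, below every library of KO M2 in DMEM and of KO M0 in CM in batch 1, 5990 CPM in the library labelled KO M2 CM replicate 4, above every batch 1 library, and 602 CPM in WT M0 DMEM replicate 4. T cell, B cell, erythroid, brown fat and fibroblast lists each summed to less than 3 CPM in every group mean. The dendritic list summed to 6.05 to 18.1 CPM and the plasmacytoid dendritic list, in which Tcf4 made up nearly all, to 194 to 546 CPM. In bulk RNA, fewer cells of a type and less RNA per cell cannot be told apart. The labels do not tie libraries to separate animals, so p-values measure only the spread between these libraries, which may be technical.

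Complex III passes electrons from ubiquinol to cytochrome c, complex IV passes them on to oxygen, and complex V uses the proton gradient that results to make ATP. Each is built from subunits encoded in the nucleus and a few encoded by mitochondrial DNA, so both genomes must be read for a complete enzyme. Alternative activation of macrophages by IL-4 is known to go along with oxidative metabolism, and some complex IV subunits have isoforms that are largely kept to muscle, testis or lung.

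The promoters of the members were read from RefSeq because most members moved together in 1 group (build GRCm38.p6, 250 bases before to 50 after each start). A promoter was matched for 31 of 41 members; Atp5a1, Atp5mpl, Cox4i1, Cox6a2, Cox6c, Cox6c2, Cyc1, Uqcrb, Uqcrc2 and Uqcrq had no entry. On either strand, CGCANGCG, the core of the site of NRF1, was present in 14 of 31 members (45.2%) and 9.22% of all genes in the table. CCGGAAG, a site of ETS factors as bound by GABP, was in 11 of 31 members (35.5%) and 9.93% of all genes. AAGATGGCG (YY1) was in 2 of 31 members (6.45%) and 1.64% of all genes, TCAAGGTCA (ERR) in 1 of 31 members (3.23%) and 0.466% of all genes, and ACGTG, the core of the HIF site, in 9 of 31 members (29%) and 21.8% of all genes. A match is a description of letters, not of binding. Shown are, for each complex, the called member with the largest rise on IL-4 in WT that has a single promoter in the table, and Cox7a2l, which did not pass the test there; capitals mark matches to these motifs. They lie at chr9:108936398-108936697, plus strand (Uqcrc1), chr19:7217567-7217866, minus strand (Cox8a), chr10:128083057-128083356, plus strand (Atp5b) and chr17:83514284-83514583, minus strand (Cox7a2l).
Uqcrc1: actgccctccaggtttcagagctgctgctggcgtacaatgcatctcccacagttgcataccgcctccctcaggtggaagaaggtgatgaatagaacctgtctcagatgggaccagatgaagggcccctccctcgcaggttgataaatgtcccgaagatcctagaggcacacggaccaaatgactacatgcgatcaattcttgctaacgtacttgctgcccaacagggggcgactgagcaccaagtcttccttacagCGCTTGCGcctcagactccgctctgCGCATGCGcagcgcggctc
Cox8a: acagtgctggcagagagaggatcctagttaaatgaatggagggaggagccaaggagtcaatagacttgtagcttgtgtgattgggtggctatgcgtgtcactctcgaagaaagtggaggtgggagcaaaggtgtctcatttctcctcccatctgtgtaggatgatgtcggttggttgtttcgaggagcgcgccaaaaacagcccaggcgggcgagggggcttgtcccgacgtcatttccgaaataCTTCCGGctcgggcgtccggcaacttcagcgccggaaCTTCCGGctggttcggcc
Atp5b: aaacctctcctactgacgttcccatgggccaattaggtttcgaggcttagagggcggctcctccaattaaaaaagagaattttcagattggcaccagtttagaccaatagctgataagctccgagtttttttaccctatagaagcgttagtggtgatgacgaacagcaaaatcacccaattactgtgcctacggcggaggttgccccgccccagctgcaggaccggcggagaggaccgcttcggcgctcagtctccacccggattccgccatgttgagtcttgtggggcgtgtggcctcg
Cox7a2l: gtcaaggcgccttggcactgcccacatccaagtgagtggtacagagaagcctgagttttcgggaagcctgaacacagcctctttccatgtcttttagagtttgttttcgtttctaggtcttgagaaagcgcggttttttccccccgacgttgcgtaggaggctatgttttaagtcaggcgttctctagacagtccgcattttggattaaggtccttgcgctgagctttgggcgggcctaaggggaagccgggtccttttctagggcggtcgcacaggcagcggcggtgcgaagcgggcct
The Uqcrc1 promoter held 2 NRF1 cores and that of Cox8a 2 ETS sites, while none of the 5 motifs was found in these windows of Atp5b and Cox7a2l.

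WT M2 macrophages in DMEM held the highest mean of the 8 groups for 32 of the 40 tested members. Set against each member's mean in WT M0 in DMEM, the median member stood at 0.44, 0.42 and 0.40 on the log2 scale in the 3 libraries of that group. The other batch 1 libraries ran from -0.12 to 0.22, so none reached the group. WT M2 in DMEM is the only batch 1 group without a replicate 1. In all other groups but KO M2 in DMEM, the median member was lowest in replicate 1. The part of this in the result was not tested. In batch 2, the library labelled KO M2 CM replicate 4 stood at 0.45, close to WT M2 in DMEM, and the library labelled KO M2 DMEM replicate 4 at -0.08. The members that peaked elsewhere were Atp5g1 and Uqcrb (WT M2 in CM), Cox7a1 and Cox7a2 (WT M0 in CM), and Atp5h, Cox6a2, Cox7a2l and Uqcrq (KO M0 in CM). The comparisons of M2 with M0 in WT DMEM, of KO with WT in M2 DMEM and of CM with DMEM in WT M2 all share these 3 libraries, so they are not independent of each other.

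**Figure D1:**
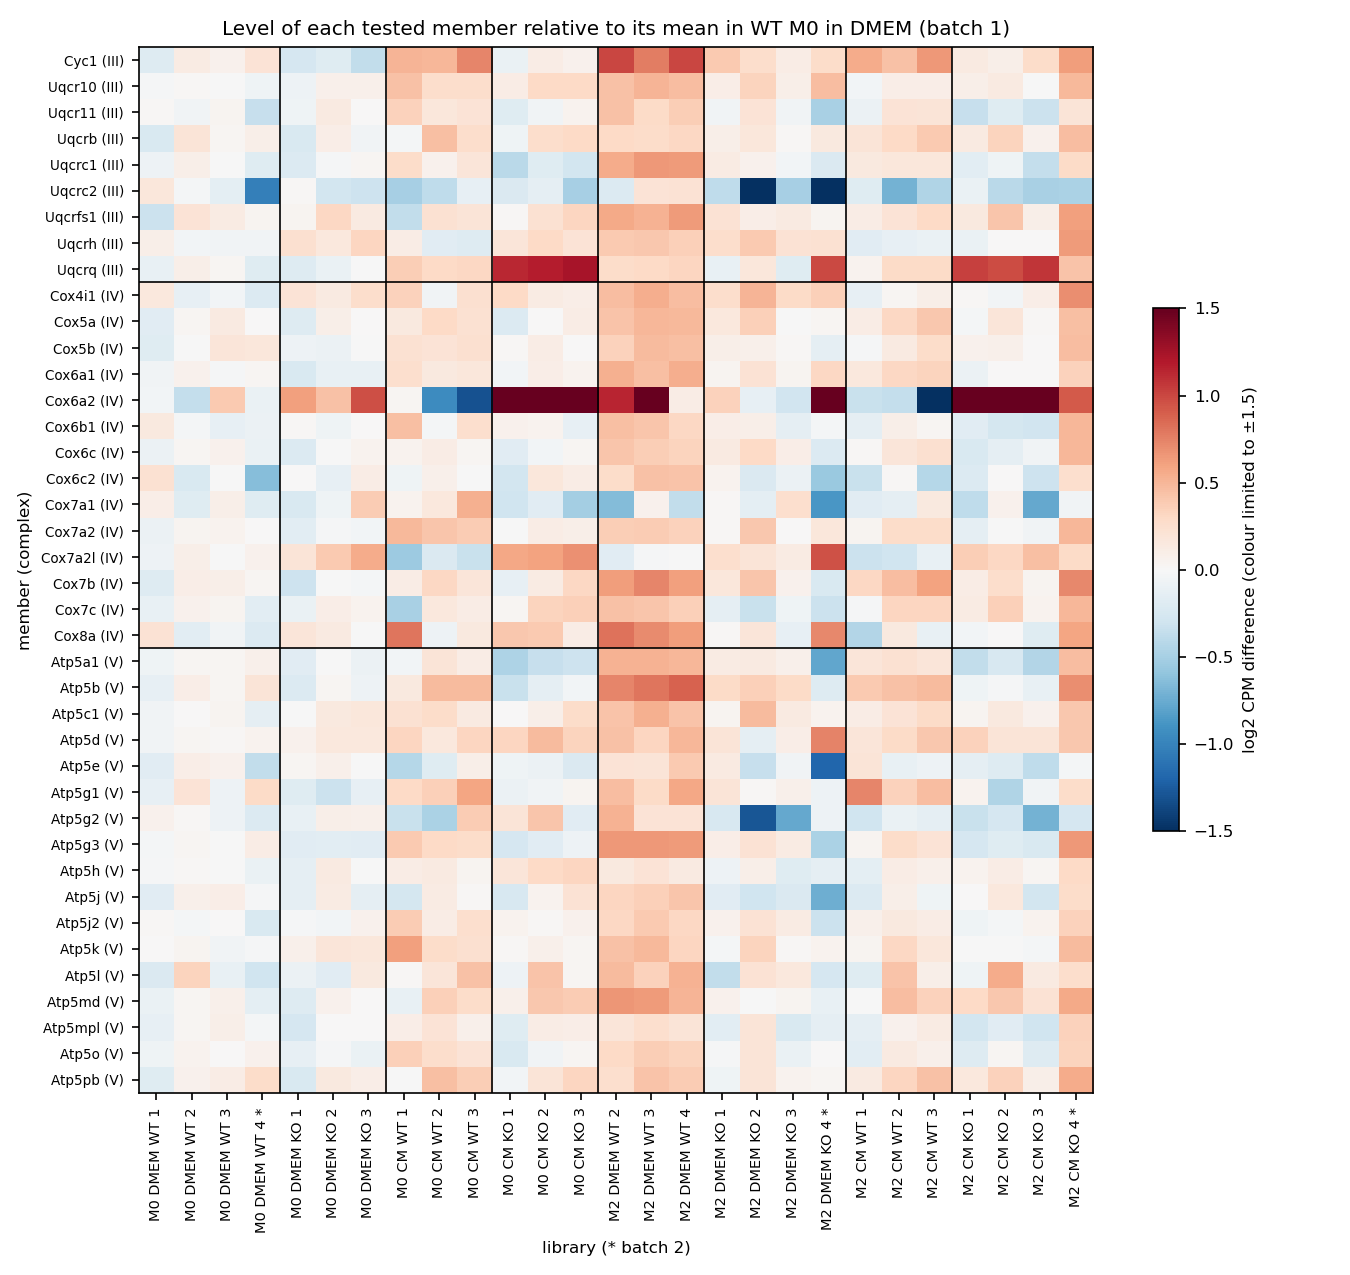
Each row is a tested member with its complex and each column a library; colour is the log2 CPM difference from the member's mean in WT M0 in DMEM, limited to ±1.5, and an asterisk marks batch 2. The 3 WT M2 DMEM libraries are red for most members, and Cox6a2, Uqcrq and Cox7a2l are red in KO libraries in CM.

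The first comparison asks how IL-4 changed the subunits in WT cells in DMEM. 31 of 40 members rose and none fell by edgeR's quasi-likelihood test at an adjusted p under 0.05, against 19.1% of all genes higher and 18.1% lower. For falls there were 0 at an unadjusted p under 0.05 and 0 by DESeq2. The median member changed by 0.40 and the median gene by -0.03 on the log2 scale. Adding batch 2 gave 25 higher and 0 lower (0 at an unadjusted p under 0.05) of 40, against 26.9% of all genes in either direction. By complex, 7 of 9, 12 of 14 and 12 of 17 tested members rose. Cyc1, which is cytochrome c1 of complex III, was at 29.5, 37 and 35.4 CPM in M0 and 67.8, 57.8 and 67.9 CPM in M2. All 3 M2 libraries were above all 3 M0 libraries, with a log2 fold change of 0.92 ± 0.11 (SE; adjusted p = 1.62e-07). Atp5b, the catalytic beta subunit of ATP synthase, stood at 392, 458 and 438 CPM in M0 and at 714, 750.1 and 792 CPM in M2. These groups did not overlap either, and the log2 fold change was 0.80 ± 0.09 (SE; adjusted p = 6.48e-08). Of complex IV, Cox8a rose by 0.71 and Cox7b by 0.64. Cox6a2 also passed, from low counts, with 1.15 ± 0.40 (SE; adjusted p = 0.0249). The threshold was missed by Cox6a2 without WT M0 DMEM 1/2 or WT M2 DMEM 2/3 (0.76 to 1.09) and Uqcrq without WT M0 DMEM 1 or WT M2 DMEM 4 (0.23 to 0.26). Here and below, numbers after a group name its replicates, each left out alone, and values in parentheses are the log2 fold changes without them, or with all 27 libraries where batch 2 is named. Named members that missed the threshold with batch 2 were Cox6a2 (1.19) and Uqcrq (0.32). The 9 tested members that did not pass were Atp5e, Atp5g2, Atp5h, Atp5l, Atp5mpl, Cox7a1, Cox7a2l, Uqcrb and Uqcrc2.

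In KO cells in DMEM, IL-4 raised 6 members and lowered 1, against 15.6% and 12.9% of all genes. The median member changed by 0.06. Over all 27 libraries there were 2 higher and 0 lower (2 at an unadjusted p under 0.05), and 16.1% of all genes passed in either direction. Cyc1 stood at 28.4, 29.9 and 26.1 CPM in KO M0 and 44.5, 40.7 and 36.4 CPM in KO M2, which did not overlap, and rose by 0.52. The other rises named by size were Atp5b (0.39), Cox7b (0.33), Atp5g3, a gene for the membrane ring's subunit c (0.31), and Cox6a1 (0.24). Atp5g2, another gene for subunit c, fell by 0.75. The number of 7 became 3 without KO M2 DMEM 2. The calls lost were Cox7b without KO M0 DMEM 1 or KO M2 DMEM 2 (0.23 to 0.24), Cox6a1 without KO M0 DMEM 1 or KO M2 DMEM 2 (0.19 to 0.20) and Atp5g2 without KO M2 DMEM 2/3 (-0.71 to -0.52). The fit of 27 libraries did not call Atp5b (0.29), Cox7b (0.24), Atp5g3 (0.19) and Atp5g2 (-0.53).

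Whether the IL-4 response differed between genotypes was tested directly, as a comparison added after the data were seen. The interaction, the response in KO less that in WT, was negative for 5 of 40 members and positive for none. The shares of all genes were 3.22% and 3.86%. Positive ones numbered 0 at an unadjusted p under 0.05 and 0 by DESeq2, and negative ones 25 and 11. A negative value need not be a smaller response: Atp5g2 changed by -0.75 in KO and did not pass in WT. The 5 were Cox6a2 (-1.98), Atp5g2 (-1.06), Uqcrc1, a core subunit of complex III (-0.50), Atp5d, the delta subunit of ATP synthase (-0.49), and Atp5g3 (-0.33). The median member differed by -0.33, and 39 of 40 estimates were negative. The share of negative estimates over all genes is not given here, so this count is not set against it. In place of 5, there were 1 without WT M2 DMEM 2/4 or KO M2 DMEM 3, 2 without WT M2 DMEM 3 or KO M0 DMEM 3, 3 without WT M0 DMEM 1 or KO M0 DMEM 2, 9 without KO M0 CM 1, 14 without WT M0 CM 1. No longer past the threshold were Cox6a2 without WT M0 DMEM 1/2, KO M0 DMEM 1/3, WT M2 DMEM 2/3 or KO M2 DMEM 2/3 (-2.02 to -1.58), Atp5g2 without WT M0 DMEM 1/2/3, WT M2 DMEM 2/3/4, KO M0 DMEM 2/3 or KO M2 DMEM 2/3 (-1.10 to -0.82), Uqcrc1 without KO M2 DMEM 3 or WT M2 DMEM 4 (-0.46 to -0.44), Atp5d without WT M2 DMEM 2/4 or KO M2 DMEM 2 (-0.46 to -0.39) and Atp5g3 without WT M0 DMEM 1/2/3, KO M0 DMEM 1/2/3, KO M2 CM 1/3, KO M2 DMEM 1/2/3, WT M2 DMEM 2/3/4, KO M0 CM 2, WT M0 CM 3 or WT M2 CM 3 (-0.35 to -0.28). The 27 libraries together gave none higher or lower by edgeR (0 and 13 at an unadjusted p under 0.05) of 40, against 1.24% of all genes in either direction. Moved by over 1.5 times or turned in sign were Cox6a2 (1.75) and Atp5d (-0.24).

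In CM the M2 cells did not stand above M0. In WT, no member was higher in M2 and 9 were lower, against 11.9% and 13% of all genes, and the median member changed by -0.12. For rises there were 0 at an unadjusted p under 0.05 and 0 by DESeq2. Those lower by most were Cox8a (-0.53), Uqcr10, a small subunit of complex III (-0.35), Atp5o, the stalk subunit OSCP (-0.33), Cox6b1 (-0.32) and Cox7a2 (-0.30). Leaving out 1 library changed this number from 9 to 1 without WT M0 CM 1 or WT M2 CM 1, 5 without WT M2 CM 3. The threshold was missed by Cox8a without WT M0 CM 1 or WT M2 CM 1/3 (-0.53 to -0.22), Atp5o without WT M0 CM 1 or WT M2 CM 1 (-0.28 to -0.22), Cox6b1 without WT M0 CM 1/3 or WT M2 CM 1 (-0.31 to -0.19) and Cox7a2 without WT M0 CM 1 or WT M2 CM 1 (-0.27 to -0.20). With all 27 libraries the members passing were none higher or lower by edgeR (0 and 5 at an unadjusted p under 0.05), against 8.77% of all genes in either direction. Batch 2 holds no WT library in CM, so these groups gained none. In KO, no member was higher and 1, Uqcrh (the hinge protein of complex III, -0.26), was lower, against 6.71% and 4.47% of all genes. Upward there were 0 at an unadjusted p under 0.05 and 0 by DESeq2. The number of 1 became 0 without KO M2 CM 1/2/3 or KO M0 CM 2/3, 2 without KO M0 CM 1, WT M2 CM 1 or WT M2 DMEM 3/4, 3 without WT M0 CM 1. Adding batch 2 gave none higher or lower by edgeR (0 and 1 at an unadjusted p under 0.05) of 40, against 3.46% of all genes in either direction. Moved by over 1.5 times was Uqcrh (-0.09).

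The difference between the IL-4 responses of WT cells in CM and in DMEM was also tested after the data were seen. The interaction, the response in CM less that in DMEM, was negative for 24 of 40 members and positive for none. The shares of all genes were 6.91% and 5.23%, and the median member was at -0.50. A negative value can be a turned sign: Cox8a changed by 0.71 in DMEM and by -0.53 in CM. In the upward direction there were 0 at an unadjusted p under 0.05 and 0 by DESeq2. The strongest were Cox8a (-1.24), Cyc1 (-1.02), Atp5g3 (-0.86), Uqcr10 (-0.82) and Atp5b (-0.81). Over all 27 libraries there were 0 higher (0 at an unadjusted p under 0.05) and 5 lower, and 1.4% of all genes passed in either direction. Of the members named, Atp5g3 (-0.80) and Atp5b (-0.74) did not pass with batch 2.

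The next question is what CM did to WT cells. In WT M0 it raised 11 members and lowered 1, against 11.3% and 9.96% of all genes, and the median member changed by 0.21. Cyc1 stood at 48.2, 47.8 and 56.3 CPM in CM, above the DMEM values given before, and rose by 0.58. Cox7a2, Atp5g1, Atp5k (subunit e) and Atp5b rose by 0.43, 0.42, 0.39 and 0.37. The member that fell was Cox7a2l (-0.36). The calls lost were Atp5g1 without WT M0 DMEM 1/3 or WT M0 CM 3 (0.32 to 0.38), Atp5k without WT M0 CM 1 (0.26), Cox7a2l without WT M0 CM 1 (-0.28) and Uqcrq without WT M0 DMEM 1 (0.26). The 27 libraries together gave 4 higher and 0 lower (1 at an unadjusted p under 0.05) of 40, against 6.98% of all genes in either direction. Named members that missed the threshold with batch 2 were Atp5g1 (0.36), Atp5b (0.35), Cox7a2l (-0.35) and Uqcrq (0.39). In WT M2 the same medium raised none and lowered 23, against 11.2% and 13.3% of all genes, with a median of -0.34. For rises there were 0 at an unadjusted p under 0.05 and 0 by DESeq2. Cox8a was at 176, 164 and 154 CPM in DMEM and 73.5, 111 and 92.2 CPM in CM. The groups did not overlap, and the log2 fold change was -0.90 ± 0.17 (SE; adjusted p = 0.000515). Uqcrh stood at 360.5, 364 and 354 CPM in DMEM and 244, 253 and 258 CPM in CM, again without overlap, and changed by -0.58. Cox6a2, Cox6c2 and Cox4i1 changed by -2.15, -0.69 and -0.55. In place of 23, there were 12 without WT M2 CM 1, 14 without WT M2 DMEM 3, 15 without WT M2 DMEM 4. With all 27 libraries the members passing were 0 higher (0 at an unadjusted p under 0.05) and 6 lower, against 7.39% of all genes in either direction. Of the members named, Cox6a2 (-2.11) did not pass with batch 2.

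In KO M0, CM raised 9 members and lowered 1, against 14.8% and 18.1% of all genes. With upper-quartile scaling factors in place of TMM, 5 were higher and 2 lower. The rises were led by Cox6a2 (4.28) and Uqcrq (1.29), followed by Atp5md (0.34), Cyc1 (0.30) and Atp5h, subunit d (0.28), while Atp5a1, the alpha subunit, fell by 0.28. Leaving out 1 library changed this number from 10 to 4 without KO M0 DMEM 1 or KO M0 CM 2/3, 6 without KO M0 DMEM 3. No longer past the threshold were Atp5md without KO M0 DMEM 1/3 or KO M0 CM 2/3 (0.27 to 0.35), Cyc1 without KO M0 DMEM 1/3 or KO M0 CM 2/3 (0.25 to 0.31), Atp5h without KO M0 DMEM 1 or KO M0 CM 2/3 (0.21 to 0.25) and Cox7a2l without KO M0 DMEM 1/2, KO M2 CM 1/2/3, KO M0 CM 2/3, WT M2 CM 2, WT M0 DMEM 3 or WT M0 CM 3 (0.15 to 0.25). Adding batch 2 gave 3 higher and 0 lower (0 at an unadjusted p under 0.05) of 40, against 19.3% of all genes in either direction. Of the members named, Atp5md (0.39), Cyc1 (0.35), Atp5a1 (-0.23) and Cox7a2l (0.29) did not pass with batch 2. In KO M2, CM raised 3 members and lowered 8, against 16.7% and 20.2% of all genes. Cox6a2, Uqcrq and Cox7c rose by 4.50, 1.07 and 0.37. Lower were Atp5a1 (-0.44), Atp5b (-0.37), Atp5g3 (-0.36), Cox4i1 (-0.32) and Uqcrh (-0.31). The number of 11 became 6 without KO M2 DMEM 2. The threshold was missed by Cox7c without KO M2 DMEM 1/2 or KO M2 CM 2 (0.27 to 0.41) and Cox4i1 without KO M2 DMEM 2 (-0.22). Over all 27 libraries there were 3 higher and 0 lower (0 at an unadjusted p under 0.05), and 6.02% of all genes passed in either direction. The 3 were Uqcrq (0.61), Cox7c (0.49) and, not called in batch 1 alone, Atp5md (0.40), while Cox6a2 was at 0.38 and did not pass (adjusted p = 0.832). None of the falls named passed, with Atp5a1 at -0.01, Atp5b at -0.02, Atp5g3 at 0.05, Cox4i1 at -0.12 and Uqcrh at -0.09.

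Loss of TRAP1 was then read within each condition. In M0 in DMEM 2 members were higher in KO and none lower, against 8.64% and 7.97% of all genes. For lower members there were 2 at an unadjusted p under 0.05 and 1 by DESeq2. Those higher were Cox7a2l (0.39) and Uqcrh (0.25). In place of 2, there were 0 without KO M0 DMEM 3, 1 without KO M0 DMEM 1, KO M2 DMEM 1/2/3, WT M2 DMEM 2/3/4 or WT M0 DMEM 2/3. The calls lost were Cox7a2l without KO M0 DMEM 3 (0.30) and Uqcrh without KO M0 DMEM 1/3, WT M2 CM 1, KO M2 DMEM 1/2/3, WT M2 DMEM 2/3/4 or WT M0 DMEM 2/3 (0.21 to 0.25). The 27 libraries together gave none higher or lower by edgeR (1 and 2 at an unadjusted p under 0.05) of 40, against 6.22% of all genes in either direction. In M2 in DMEM none was higher and 24 were lower, against 8.56% and 7.87% of all genes, with a median of -0.35 beside 0.02 for all genes. For higher members there were 1 at an unadjusted p under 0.05 and 0 by DESeq2. With upper-quartile scaling factors in place of TMM, 1 was higher and 22 were lower. Cyc1 was at 67.8, 57.8 and 67.9 CPM in WT and 44.5, 40.7 and 36.4 CPM in KO. The KO libraries lay below all WT libraries, with a log2 fold change of -0.66 ± 0.11 (SE; adjusted p = 9.45e-05). Atp5g2 stood at 17.2, 13.8 and 13.7 CPM in WT and 10.1, 4.77 and 6.90 CPM in KO, without overlap, and changed by -1.04. Uqcrc2, the other core subunit of complex III, Cox8a and Cox6a2 changed by -0.87, -0.68 and -1.21. Leaving out 1 library changed this number from 24 to 14 without KO M2 DMEM 3. No longer past the threshold were Uqcrc2 without KO M2 DMEM 2 or WT M2 DMEM 3/4 (-0.83 to -0.56), Cox6a2 without KO M0 DMEM 1/2, KO M0 CM 1/2/3, KO M2 CM 1/2/3, WT M2 DMEM 2/3 or KO M2 DMEM 2/3 (-1.22 to -0.86) and Uqcrq without KO M2 DMEM 1/3 (-0.31 to -0.28). With all 27 libraries the members passing were 0 higher (2 at an unadjusted p under 0.05) and 16 lower, against 8.29% of all genes in either direction. Named members that missed the threshold with batch 2 were Cox6a2 (2.52), Cox8a (-0.49) and Uqcrq (-0.01).

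In CM the difference between genotypes ran in both directions. In M0, 4 members were higher and 11 lower in KO, against 19.1% and 19.2% of all genes. Higher were Cox6a2 (5.95), Cox7a2l (0.99), Uqcrq (0.86) and Uqcrh (0.31). Lower by most were Cyc1 (-0.54), Atp5b (-0.53), Atp5g3 (-0.48), Uqcrc1 (-0.45) and Atp5a1 (-0.45). Atp5a1 stood at 428, 501 and 473 CPM in WT and 319, 344 and 354 CPM in KO, and the groups did not overlap. Adding batch 2 gave 3 higher and 8 lower of 40, against 22.6% of all genes in either direction. The fit of 27 libraries did not call Uqcrh (0.29) and Atp5a1 (-0.47). In M2, 3 were higher and 8 lower, against 17.2% and 16.8% of all genes. Cox6a2 (5.44), Uqcrq (0.89) and Cox7a2l (0.70) were again those higher, and Atp5g1 (-0.58), Atp5a1 (-0.46), Atp5b (-0.42), Atp5g3 (-0.32) and Uqcr11 (-0.31) led those lower. The number of 11 became 7 without KO M2 CM 1 or WT M2 CM 3. The threshold was missed by Uqcr11 without KO M2 CM 1/3 or WT M2 CM 2/3 (-0.28 to -0.26). Over all 27 libraries there were 3 higher and 1 lower, and 12.2% of all genes passed in either direction. Of the members named, Atp5a1 (-0.28), Atp5b (-0.26), Atp5g3 (-0.11) and Uqcr11 (-0.24) did not pass with batch 2.

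Tested as an interaction, the response to CM in KO less that in WT was positive for 3 members and negative for 5 in M0. The shares of all genes were 8.17% and 11.5%. The sign does not give the larger response: Cox7a2l changed by -0.36 in WT, and Atp5a1 by -0.28 in KO. Cox6a2, Uqcrq and Cox7a2l had interactions of 5.18, 0.96 and 0.60, and Atp5k, Atp5b, Uqcrc1, Atp5a1 and Atp5g3 of -0.48, -0.45, -0.40, -0.37 and -0.31. In place of 8, there were 5 without WT M0 CM 1. The calls lost were Atp5k without WT M0 CM 1 (-0.35), Uqcrc1 without WT M0 DMEM 1/3, WT M0 CM 1/3, KO M0 CM 1 or KO M0 DMEM 2/3 (-0.40 to -0.33) and Atp5g3 without WT M0 DMEM 1, WT M0 CM 1, KO M0 CM 1, KO M2 DMEM 1/3, WT M2 DMEM 2/3/4 or KO M0 DMEM 2 (-0.30 to -0.26). The 27 libraries together gave none higher or lower by edgeR (3 and 2 at an unadjusted p under 0.05) of 40, against 4.76% of all genes in either direction. In M2, 13 members had a positive interaction and none a negative one, against 9.36% and 10.8% of all genes, with a median of 0.25. For negative ones there were 0 at an unadjusted p under 0.05 and 0 by DESeq2. The largest were Cox6a2 (6.65), Uqcrq (1.22), Uqcrc2 (1.07), Cox8a (0.81) and Atp5j, coupling factor 6 (0.70). Leaving out 1 library changed this number from 13 to 5 without WT M2 CM 1 or WT M2 DMEM 3/4, 6 without KO M2 DMEM 3, 7 without KO M2 CM 2 or KO M2 DMEM 2, 8 without WT M2 DMEM 2. No longer past the threshold were Uqcrc2 without KO M2 CM 1, WT M2 CM 2/3, KO M2 DMEM 2 or WT M2 DMEM 3/4 (0.70 to 1.05), Cox8a without WT M2 CM 1, KO M2 DMEM 1/3, WT M2 DMEM 2/3 or KO M2 CM 2 (0.61 to 0.77) and Cox7a2l without WT M2 CM 1, KO M2 DMEM 2/3 or WT M2 DMEM 3/4 (0.35 to 0.42). With all 27 libraries the members passing were 2 higher and 0 lower (0 at an unadjusted p under 0.05), against 1.31% of all genes in either direction. Named members that missed the threshold with batch 2 were Cox6a2 (2.49), Uqcrq (0.71), Uqcrc2 (1.22), Cox8a (0.74) and Cox7a2l (0.13).

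**Figure D2:**
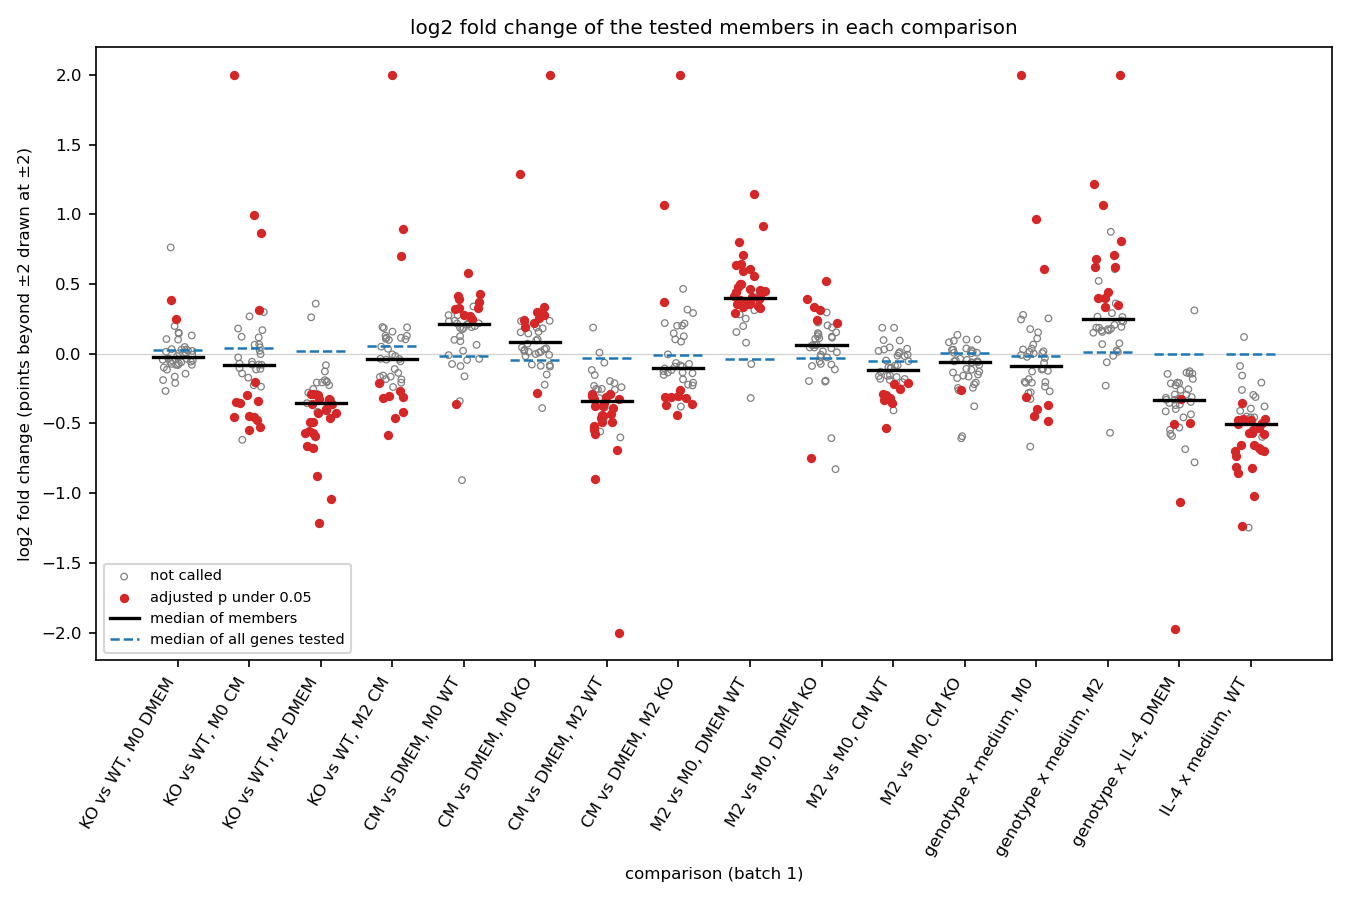
Each point is the log2 fold change of a tested member in a comparison named on the x axis, filled where the adjusted p was under 0.05, with points beyond ±2 drawn at ±2; the solid bar is the median member and the dashed bar the median of all genes tested. The median member stands at 0.40 for IL-4 in WT DMEM and at -0.35 for KO against WT in M2 DMEM.

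Cox6a2, the isoform of subunit VIa known from heart and skeletal muscle, had the widest range. In CM it stood at 30.6, 31.2 and 30.7 CPM in KO M0 and 0.918, 0.346 and 0.215 CPM in WT M0. In M2 in CM it stood at 20.3, 22.6 and 17.7 CPM in KO and 0.654, 0.641 and 0.132 CPM in WT. Every KO library in CM of batch 1 was far above every other batch 1 library, the highest of which held 2.99 CPM. From summed counts, KO exceeded WT 63.3-fold in M0 (95% exact interval 36.8 to 119; 750 against 13 counts) and 42.5-fold in M2 (23.5 to 85.7; 499 against 11 counts), intervals that cover counting error only. The fitted log2 fold changes were 5.95 ± 0.33 (SE; adjusted p = 7.71e-14) and 5.44 ± 0.35 (SE; adjusted p = 1.79e-12). In DMEM it was low in both genotypes: 1.5, 1.29 and 1.97 CPM in KO M0, and 1.2, 0.795 and 0.690 CPM in KO M2. In batch 2 the library labelled KO M2 DMEM replicate 4 held 43.6 CPM, with Xist present, and the library labelled KO M2 CM replicate 4 held 1.90 CPM. With both batches the fitted values between KO and WT were 5.93 in M0 CM and 5.01 in M2 CM, and the estimate in M2 DMEM turned from -1.21 to 2.52 and did not pass (adjusted p = 0.147). The change with CM in KO M2 went from 4.50 to 0.38 and its difference between genotypes in M2 from 6.65 to 2.49 (adjusted p = 0.582). In M0 that difference was 5.15, and it also no longer passed (adjusted p = 0.142).

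The full sum of a list of other striated muscle genes did not share this pattern. Of 20 such markers 8 were detected, their sum was 20.7 CPM in KO M0 in CM and 23 CPM in WT M0 in CM, and 12.3 and 12.1 CPM in KO and WT M2 in CM. Tnni2 was the most abundant in every group, at 13.4 and 17.1 CPM in KO and WT M0 in CM and 5.68 and 7.17 CPM in M2. It leads the sum, which therefore does not describe the other detected markers. Without Tnni2, the rest of the sum was larger in KO M0 and KO M2 in CM than in every other group, by far less than Cox6a2. The markers were not compared gene by gene. Myh1 and Myh7 had no count in KO or WT cells in CM in batch 1. The neighbours of Cox6a2 in the RefSeq order of GRCm38 were read too. Itgad, which overlaps it there, was at most 0.317 CPM in any library, Gm39091 and 4931431B13Rik had no count, 9130023H24Rik and Tgfb1i1 did not exceed 9.18 and 1.27 CPM, and Armc5 ran from 22.8 to 43.2 CPM. Armc5 was lower in CM than in DMEM in KO M0, where Cox6a2 was higher, with a log2 fold change of -0.52 (adjusted p = 0.000256; -0.47 and 0.00366 with all 27 libraries), and it was called in no comparison of KO with WT. The library kit keeps strand, but whether counting used it is not given in the sources used here, so counts of overlapping genes are uncertain. The 5 genes most like Cox6a2 in log2 CPM over the 24 libraries were Ern1 (Pearson r 0.936), Cryzl1 (0.925), Thra (0.924), Ddit3 (0.92) and Trim25 (0.919), where libraries of a group share their condition. Ddit3, a transcription factor of the unfolded protein response, was at 66.4, 65.9 and 57.6 CPM in KO M0 in CM and 17.3, 16 and 12.3 CPM in WT M0 in CM. Its means in M2 in CM were 51.7 CPM in KO and 14.6 CPM in WT. In DMEM, where Cox6a2 was low, its means were 27.3 and 14 CPM in KO and WT M0, and 24.6 and 18 CPM in KO and WT M2.

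**Figure D3:**
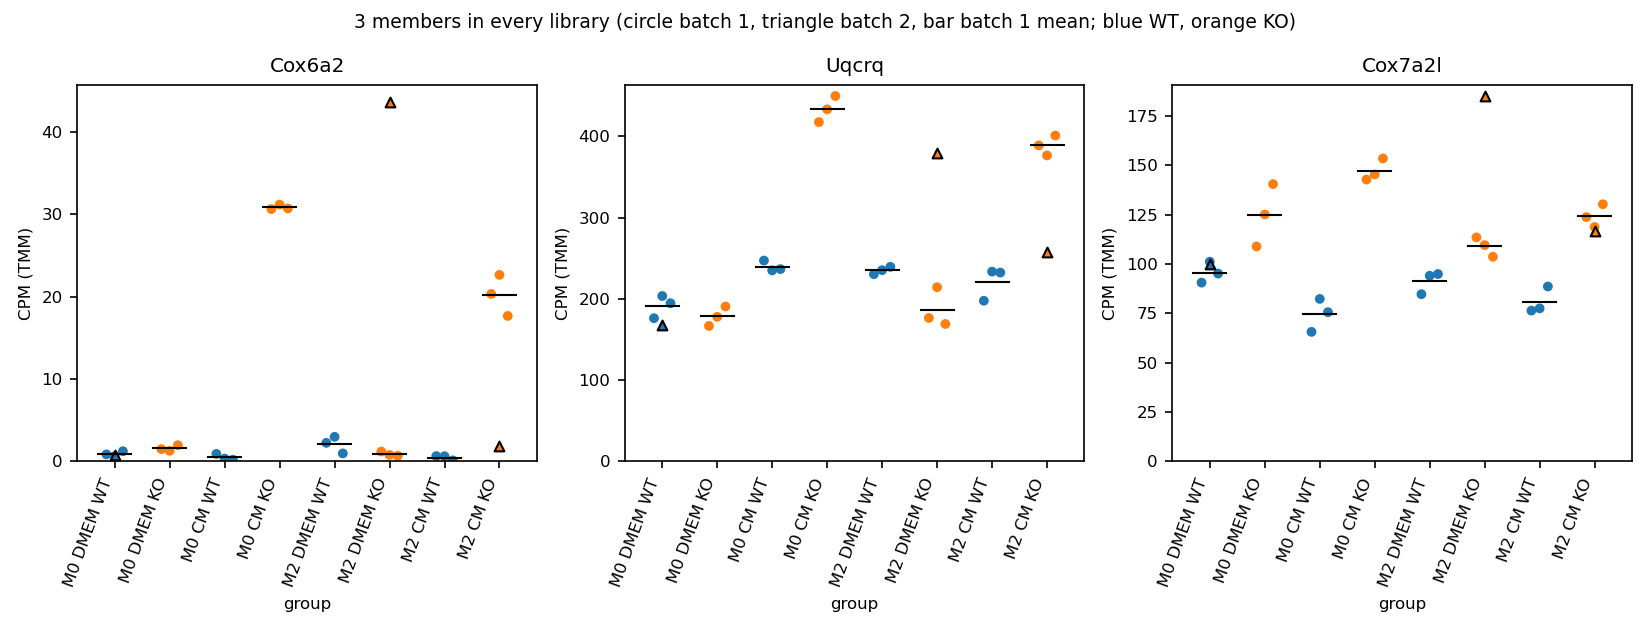
CPM of Cox6a2, Uqcrq and Cox7a2l in each library by group, on linear axes from 0; circles are batch 1, triangles batch 2, bars the batch 1 means, blue WT and orange KO. Among the circles, KO libraries in CM stand highest for Cox6a2 and Uqcrq. The triangle labelled KO M2 CM lies below them, and that labelled KO M2 DMEM is the highest of all for Cox6a2.

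Of the isoforms kept largely to 1 tissue, those other than Cox6a2 were low or absent. Cox7b2 and Cox8c, both known from testis, had no count in any of the 27 libraries. Cox4i2, a lung isoform, and Cox8b, a muscle isoform, reached at most 2 counts in a library, and Cox6b2 at most 8. Cox7a1, the muscle isoform of subunit VIIa, ran from 1.52 to 4.41 CPM and passed in no comparison by edgeR. Their ubiquitous partners Cox4i1, Cox6a1, Cox6b1, Cox7a2, Cox7b and Cox8a all passed the test for a rise with IL-4 in WT in DMEM. Cox6a1 was at 309, 336 and 318 CPM in WT M0 and 465, 438 and 467 CPM in WT M2 in DMEM, without overlap. Cox4i1 was at 353 ± 36.6 and 494 ± 16.9 CPM (mean ± SD, n = 3) in those groups, and Cox6b1 at 212 ± 20.2 and 278 ± 13.5 CPM.

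Uqcrq, a small subunit of complex III also called subunit 8, is described in detail because of its values. It stood at 417, 433 and 449.5 CPM in KO M0 in CM and 247, 235 and 237 CPM in WT M0 in CM. In M2 in CM it stood at 389, 376 and 401 CPM in KO and 198, 234 and 232 CPM in WT. All KO libraries in CM were above all WT libraries, with log2 fold changes of 0.86 ± 0.09 (SE; adjusted p = 8.39e-09) in M0 and 0.89 ± 0.09 (SE; adjusted p = 5.61e-09) in M2. In DMEM the KO libraries of batch 1 ran from 167 to 214 CPM. The batch 2 libraries labelled KO M2 DMEM and KO M2 CM held 379 and 258 CPM, and with them the log2 fold changes in CM were 0.84 in M0 and 0.70 in M2. The difference between genotypes in the response to CM was then 0.94 in M0 and 0.71 in M2, neither of which passed. Of the other complex III members Uqcrh was also higher in KO M0 in CM, while Cyc1, Uqcrc1 and Uqcr11 were lower there, at -0.54, -0.45 and -0.29, and of these 4 Uqcrh and Uqcr11 did not pass with batch 2. Gdf9, which overlaps Uqcrq in the reference, was at most 2.40 CPM, and Leap2 at most 0.517 CPM. Most like it over the 24 libraries were Krtcap2 (r 0.96), Asns (0.96), S100a6 (0.959), Soat2 (0.951) and Aqp9 (0.948). Asns, asparagine synthetase, stood at 114, 111 and 122 CPM in KO M0 in CM and 23.8, 17.5 and 18.2 CPM in WT M0 in CM. In DMEM its means were 7.94 and 9.95 CPM in KO and WT M0, and 6 and 12.3 CPM in KO and WT M2.

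Cox7a2l is known as a factor that joins complexes III and IV into supercomplexes. Whether its protein can do so in the mouse strain used here was not tested, and RNA levels cannot show it. Cox7a2l was higher in KO M0 in DMEM as well as in CM. In M0 in DMEM it was at 90.6, 101 and 95.2 CPM in WT and 109, 125 and 140.5 CPM in KO. In M0 in CM it was at 65.7, 82.3 and 75.6 CPM in WT and 143, 145 and 154 CPM in KO. Neither pair of groups overlapped, and the log2 fold changes were 0.39 ± 0.09 (SE; adjusted p = 0.00411) and 0.99 ± 0.09 (SE; adjusted p = 3.22e-09). In M2 they were 0.26 in DMEM (adjusted p = 0.0612), which did not pass, and 0.70 in CM; whether the DMEM value differed between M0 and M2 is given by the interaction of genotype with IL-4, -0.13 (adjusted p = 0.672). With batch 2 added, the values in CM were 0.97 in M0 and 0.62 in M2, and that in M0 in DMEM, 0.33, no longer passed. The differences between genotypes in its response to CM, 0.60 in M0 and 0.44 in M2, were 0.64 and 0.13 and did not pass either. Atp5if1, the inhibitor of ATP synthase, is listed under the older symbol Atpif1 and is not a member; it stood at 644 ± 37.8 CPM in WT M2 in DMEM and 471 ± 36.8 CPM in WT M2 in CM (mean ± SD, n = 3).

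The 6 subunits encoded by mitochondrial DNA were read beside the nuclear ones. CYTB, the cytochrome b of complex III, was at 6250, 7071 and 6892 CPM in WT M0 and 13750, 13090 and 13210 CPM in WT M2 in DMEM. In KO in DMEM it was at 7233, 7687 and 8391 CPM in M0 and 15610, 14420 and 14270 CPM in M2. M2 was above M0 without overlap in both genotypes of batch 1. With IL-4 in DMEM 5 of 6 rose in WT (median 0.92) and 5 of 6 in KO (median 0.75), against 19.1% and 15.6% of all genes. These calls were mostly lost with batch 2, which gave 1 of 6 in WT (median 0.79) and 1 of 6 in KO (median 0.42). The shares of all genes in either direction were then 26.9% and 16.1%. CYTB no longer passed in either (adjusted p = 0.0705 and 0.278). In WT in CM 5 of 6 rose with IL-4, against 11.9% of all genes. With batch 2, which adds no WT library in CM, it was 1 of 6, against 8.77% of all genes in either direction. In KO against WT in M2 in DMEM their median was 0.07, beside -0.35 for the nuclear members, and with batch 2 the medians were -0.30 and -0.38. In KO M2, CM lowered 4 of 6, against 20.2% of all genes, with COX3 at -1.59. With batch 2 none of the 6 passed there as lower by edgeR, with 0 at an unadjusted p under 0.05, and COX3 stood at -0.62. Of all genes 6.02% passed in either direction.

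Assembly factors were read next. With IL-4 in WT in DMEM 3 of 21 tested complex IV factors rose and 1 fell, against 19.1% and 18.1% of all genes. Cox17, a copper chaperone, rose by 0.54, Higd2a by 0.49 and Coa5 by 0.29, and Cmc2 fell by 0.59. With batch 2 only Higd2a (0.45) and Cmc2 (-0.68) of these 4 still passed, where 26.9% of all genes passed in either direction. Of 6 factors for complex III 1 rose (Uqcc1, 0.31, and 0.33 with batch 2), and of 4 for complex V 1 fell (Tmem242, -0.35, which did not pass with batch 2 at -0.41). KO M0 in CM exceeded WT in 6 of 21 complex IV factors and was below it in 3, against 19.1% and 19.2% of all genes. Surf1 (0.88), Higd2a (0.87), Cox14 (0.61) and Cox17 (0.49) led those higher, and Cmc2 (-1.05), Coa7 (-0.96) and Cox10 (-0.69) were lower. With batch 2 the numbers were 4 and 3, against 22.6% of all genes in either direction, and Cox17 no longer passed. Cycs, cytochrome c itself, rose with IL-4 by 0.66 in WT and by 0.52 in KO in DMEM (0.60 and 0.71 with batch 2). Ndufa4, a complex IV-associated protein, rose by 0.61 in WT (0.60 with batch 2).

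Among 11 tested regulators, 3 rose and 2 fell with IL-4 in WT in DMEM, against 19.1% and 18.1% of all genes. With batch 2 there were 2 higher and 2 lower, against 26.9% of all genes in either direction. Ppargc1b, the coactivator PGC-1β, changed most. It was at 7.52, 5.69 and 5.88 CPM in WT M0 and 51, 47 and 40.9 CPM in WT M2. In KO in DMEM it was at 6.99, 6.72 and 8.14 CPM in M0 and 28.9, 30.8 and 24 CPM in M2. M2 exceeded M0 without overlap in both genotypes, by 2.85 ± 0.18 (SE; adjusted p = 5.14e-13) and 1.93 ± 0.18 (SE; adjusted p = 1.75e-09). The interaction of genotype and IL-4 was -0.92 (adjusted p = 0.021), and the change with CM was -1.49 in WT M2 and -1.94 in KO M2. With batch 2 the rise in WT still passed (2.81), while none of the others did: the rise in KO (1.55, adjusted p = 0.0726), the interaction (-1.26, 0.469), and the change with CM in WT M2 (-1.44, 0.136) and KO M2 (-0.60, 0.519). Pprc1 and Polrmt rose with IL-4 in WT by 0.64 and 0.57, of which Pprc1 did not pass with batch 2, while Gabpb1 and Tfam changed by -0.94 and -0.37 and passed with it too.

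Of 16 genes of general mitochondrial content, 9 rose with IL-4 in WT in DMEM, against 19.1% of all genes. With batch 2 there were 8, against 26.9% of all genes in either direction. Their median was 0.44, beside 0.40 for the members. Hspd1 (0.71), Clpp (0.66), Vdac2 (0.62) and Hspe1 (0.56) rose most. KO was lower than WT for 6 of 16 in M2 in DMEM, with a median of -0.25, against 7.87% of all genes. With batch 2 it was lower for 2, against 8.29% of all genes in either direction.

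**Figure D4:**
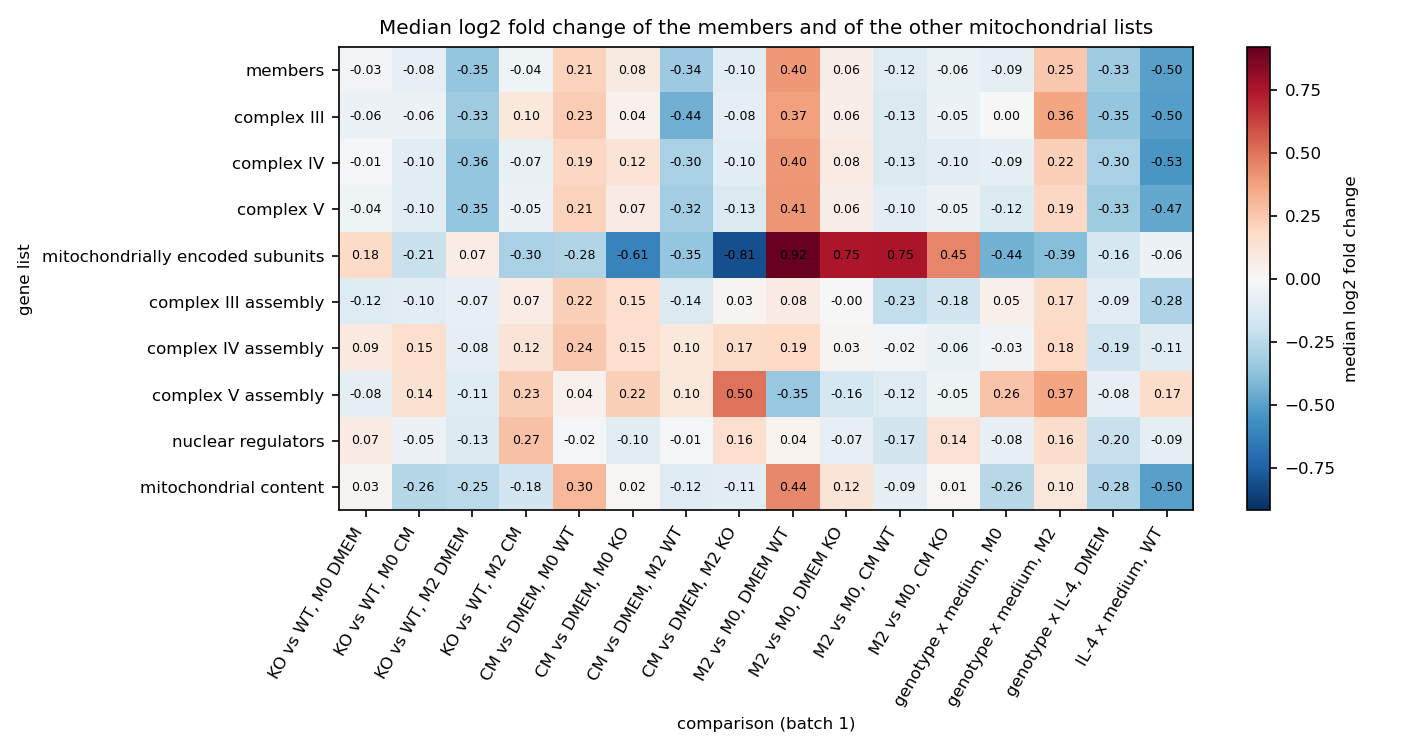
Each cell gives the median log2 fold change of a gene list (rows) in a comparison (columns), for the members, their 3 complexes and the other mitochondrial lists, with colour on the same scale. For IL-4 in WT DMEM the medians of the members, the mitochondrially encoded subunits and the content genes are 0.40, 0.92 and 0.44.

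Other measures also differed in M2 in DMEM, in both genotypes or most in WT. The TMM factor averaged 0.903 in WT M2 and 0.897 in KO M2 in DMEM, against 1.10 in WT M0 in DMEM. It thus did not set WT M2 apart from KO M2. The list of Schwann or tumor markers, of which 4 of 6 genes were detected, summed to 62.3 CPM in WT M2 and 36.9 CPM in KO M2 in DMEM, against 3.05 to 19.1 CPM elsewhere. Nes made up most of it, while Sox10 and Ngfr had no count in either M2 group in DMEM. Of the 8 neutrophil markers 5 were detected, led by S100a8 except in KO M0 in CM, where Ly6g led. They summed to 18 CPM in WT M2 in DMEM and 2.10 to 12.4 CPM in the other groups of batch 1. In batch 2 they summed to 445 CPM in the library labelled KO M2 CM replicate 4, 54.8 CPM in WT M0 DMEM replicate 4 and 9.78 CPM in the library labelled KO M2 DMEM replicate 4. The plasmacytoid dendritic list was lowest in WT M2 in DMEM. Itgax, an integrin known from dendritic cells and also made by macrophages, is not in either dendritic list. Its mean was 1494 CPM in WT M2 and 775 CPM in KO M2 in DMEM, 389 and 120 CPM in WT and KO M2 in CM, and at most 71.2 CPM in an M0 group. The batch 2 libraries labelled KO M2 CM, KO M2 DMEM and WT M0 DMEM held it at 453, 20.2 and 34.7 CPM. The part of these measures in the members' levels was not tested. Pseudogene rows may take reads from their parent genes, and the counts of such members are uncertain to that extent.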

How the data were processed

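Counts per gene were deposited for 27 libraries of 3′ mRNA sequencing (QuantSeq); per the labels, the authors trimmed reads with Trimmomatic, checked them with FastQC, mapped them with HISAT2, removed alignments of MAPQ under 20 with SAMtools and counted with featureCounts, all in versions not stated. Of 32 columns, 5 had no sample label and were not used. Values were computed in R 4.3.3 with edgeR 4.0.16 (TMM factors, filterByExpr, robust quasi-likelihood F tests over all 8 groups, Benjamini-Hochberg adjustment over 13614 genes, threshold 0.05) and checked with DESeq2 1.42.0. A SE is the absolute log2 fold change over the square root of F. The depth puts 3 counts at 0.244 to 0.452 CPM.

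Members and gene lists were chosen with earlier results of these data known. Named members are, per comparison, up to 5 called members with the largest rise and 5 with the largest fall, the tissue isoforms with their partners, Cox7a2l and Atp5if1; of other lists, up to 4 called genes per direction; and the 3 neighbours on each side of Cox6a2 and the 5 genes most like it. Uqcrq's neighbours and likeness, Itgax, and members named beyond this rule, were picked with their values in view. So were the 2 interactions with IL-4, the Cox6a2 count ratio, the promoters shown and the fit less 2 libraries. Phb stands for Phb1 and Atpif1 for Atp5if1, as the table spells them. Alternatives were other scaling, filters, library sets, fits and DESeq2. Gene order and promoters come from RefSeq GRCm38.p6; the counts' build is mm39 per the labels, while the study's methods name mm10.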

Additional observations from a re-analysis of the deposited data

Results flagged for a closer look

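In groups with a batch 2 library, 1 library stood far from the others in 4 of the 18 sets of 4 values looked at; chance gives this in about 1 in 20 groups. The library labelled KO M2 DMEM replicate 4 held Cox6a2 at 43.6 CPM, against 0.69 to 1.2 CPM in the other 3, and Cox7a2l at 185 CPM, against 104 to 113 CPM. The library labelled KO M2 CM replicate 4 had a median log2 level of 0.49 (0.494) for complex IV and 0.35 (0.347) for complex V, against -0.03 to 0.03 and -0.06 to -0.01 in the others. These are the 2 libraries closest to a group other than their label's.

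Other results differed between groups by the test of an interaction. The response to CM differed between genotypes for Cox6a2 by 5.18 in M0 and 6.65 in M2, for Uqcrq by 0.96 and 1.22, and for Cox7a2l by 0.60 and 0.44. None of these passed with all 27 libraries, where they were 5.15 and 2.49, 0.94 and 0.71, and 0.64 and 0.13. In the fit less the 2 libraries closest to another group, chosen after seeing the data, 7 of the 8 members called in M0 were still called. In M2 it was 9 of 13. The IL-4 response of Cox6a2 in DMEM differed by -1.98, and by 1.75, the other way and not past the threshold, with all 27 libraries. The number of members with such a difference was 8 for genotype and medium in M0, 13 in M2, 5 for genotype and IL-4 in DMEM, and 24 for IL-4 and medium in WT.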

How the results depend on the processing

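Except for leaving out single libraries, where each range is given, the number of members called is given only where it moved by over 1.5 times. With all 27 libraries, it was 0 for KO vs WT M0 DMEM, 4 for KO vs WT M2 CM, 4 for CM vs DMEM M0 WT, 3 for CM vs DMEM M0 KO, 6 for CM vs DMEM M2 WT, 3 for CM vs DMEM M2 KO, 2 for M2 vs M0 DMEM KO, 0 for M2 vs M0 CM WT, 0 for M2 vs M0 CM KO, 0 for genotype by medium M0, 2 for genotype by medium M2, 0 for genotype by IL-4 DMEM, 5 for IL-4 by medium WT. With batch as a covariate over 27 libraries, it was 0 for KO vs WT M0 DMEM, 4 for KO vs WT M2 CM, 4 for CM vs DMEM M0 WT, 4 for CM vs DMEM M0 KO, 7 for CM vs DMEM M2 WT, 3 for CM vs DMEM M2 KO, 2 for M2 vs M0 DMEM KO, 1 for M2 vs M0 CM WT, 0 for M2 vs M0 CM KO, 0 for genotype by medium M0, 2 for genotype by medium M2, 0 for genotype by IL-4 DMEM, 10 for IL-4 by medium WT. With 27 libraries less the 2 closest to another group (chosen after seeing the data), it was 4 for KO vs WT M0 DMEM. With median-of-ratios factors, it was 1 for KO vs WT M0 DMEM. With upper-quartile factors, it was 1 for KO vs WT M0 DMEM, 8 for genotype by medium M2. Without the filter on low counts, it was 1 for KO vs WT M0 DMEM, 5 for CM vs DMEM M0 KO, 5 for M2 vs M0 CM WT, 2 for M2 vs M0 CM KO, 11 for genotype by IL-4 DMEM. With the compared groups fitted alone, it was 7 for CM vs DMEM M0 WT, 0 for M2 vs M0 CM WT, 3 for M2 vs M0 CM KO, 12 for genotype by IL-4 DMEM. By DESeq2, it was 2 for M2 vs M0 CM KO, 11 for genotype by IL-4 DMEM. With a change of 0.5 or more on the log2 scale also required, it was 0 for KO vs WT M0 DMEM, 5 for KO vs WT M0 CM, 9 for KO vs WT M2 DMEM, 4 for KO vs WT M2 CM, 1 for CM vs DMEM M0 WT, 2 for CM vs DMEM M0 KO, 7 for CM vs DMEM M2 WT, 2 for CM vs DMEM M2 KO, 11 for M2 vs M0 DMEM WT, 2 for M2 vs M0 DMEM KO, 1 for M2 vs M0 CM WT, 0 for M2 vs M0 CM KO, 3 for genotype by medium M0, 8 for genotype by medium M2, 3 for genotype by IL-4 DMEM. Leaving out each library in turn gave 0 to 3 for KO vs WT M0 DMEM, 12 to 17 for KO vs WT M0 CM, 14 to 28 for KO vs WT M2 DMEM, 7 to 16 for KO vs WT M2 CM, 8 to 16 for CM vs DMEM M0 WT, 4 to 12 for CM vs DMEM M0 KO, 12 to 25 for CM vs DMEM M2 WT, 6 to 13 for CM vs DMEM M2 KO, 25 to 32 for M2 vs M0 DMEM WT, 3 to 9 for M2 vs M0 DMEM KO, 1 to 9 for M2 vs M0 CM WT, 0 to 3 for M2 vs M0 CM KO, 5 to 8 for genotype by medium M0, 5 to 15 for genotype by medium M2, 1 to 14 for genotype by IL-4 DMEM, 18 to 26 for IL-4 by medium WT. The replicate block, which pairs libraries by number, gave 3 for M2 vs M0 CM KO and moved no other number by over 1.5 times. Same-numbered libraries deviated together with a mean r of 0.107 over 77 pairs, against -0.0451 over 175 other pairs. Of the 77, 34 passed 0.1, and 11 of 24 libraries were closest to their own number, so numbers were not taken as pairs. WT M2 in DMEM is numbered 2 to 4 in batch 1, so pairing by number may not hold for it. The median member was lowest in replicate 1 in every batch 1 group that has one but KO M2 in DMEM. In WT M2 in CM, for instance, it stood at 0.01, against 0.19 and 0.17 in replicates 2 and 3. With all 27 libraries, log2 fold changes of the opposite sign to those reported were 2.52 for Cox6a2 KO vs WT M2 DMEM, 0.0492 for Atp5g3 CM vs DMEM M2 KO, 1.75 for Cox6a2 genotype by IL-4 DMEM, -0.0536 for Cox7a2l CM vs DMEM M2 KO, 2.94 for Cox6a2 M2 vs M0 DMEM KO, 0.0532 for Cox7a2l M2 vs M0 DMEM KO, 0.156 for Cox7a2l genotype by IL-4 DMEM, 0.0920 for Uqcrq genotype by IL-4 DMEM. With batch as a covariate, such values were 0.825 for Cox6a2 KO vs WT M2 DMEM, 0.0162 for Atp5g3 CM vs DMEM M2 KO, -0.0190 for Cox7a2l CM vs DMEM M2 KO, 1.24 for Cox6a2 M2 vs M0 DMEM KO. Among changes that did not pass, leaving out each library in turn gave -0.0470 to 0.138 for Uqcrq M2 vs M0 DMEM KO (lowest without KO M2 DMEM 2), and for M2 vs M0 CM WT -0.464 to 0.681 for Cox6a2 and -0.0343 to 0.120 for Cox7a2l, with signs turned without WT M0 CM 1 or WT M2 CM 3. The cause was not tested. Values near the floor of 3 counts (0.244 to 0.452 CPM) are limited by depth.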
